A study of Homo sapiens with 21 samples.

Results

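The 10 genes described here are transcription factors and feedback regulators of the integrated stress response: ATF4, ATF5, CEBPB, CEBPG, DDIT3, ATF3, TRIB3, NUPR1, CHAC1 and SESN2. They were chosen by gene name from the 58735 genes of the count table, with earlier results of these data known. All 10 were among the 16699 genes with enough counts to be tested. RNA sequencing was done on cells that the labels call HepG2, the name of a human liver cancer line, after 24 h with coumarin, a benzopyrone found in many plants. All 7 groups were kept in serum-free medium during the exposure, and they received coumarin at 0, 0.001, 0.01, 0.1, 1, 10 or 100 µM. The 0 µM group, labelled untreated, was the control, and each group held 3 libraries that the labels call biological replicates, for 21 libraries. The sum of gene counts per library ran from 26984563 to 43375429.

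The labelled cell type was set against marker genes. Albumin (ALB), transthyretin (TTR) and fibrinogen beta (FGB) had 0 counts in all 21 libraries, which allows up to 3 counts per library, and APOA1, APOB, SERPINA1, TF, HNF4A and AFP had at most 5 counts in any library. Keratins KRT8 and KRT18 averaged 2500 and 1200 CPM (counts scaled to library size), vimentin (VIM) 312 CPM and the collagen COL1A1 114 CPM, while epithelial EPCAM and the collagen COL1A2 had at most 1 count in any library. The markers of hepatocytes were therefore at or near 0 in cells labelled as a liver line, and the cells are called here by their label only. Leukocyte PTPRC stayed at 3 counts or fewer and endothelial PECAM1 at 12 or fewer. At 100 µM KRT8 and KRT18 fell by log2 changes of -0.43 and -0.58 (adjusted p = 4.87e-11 and 3.22e-13 by edgeR), while VIM and COL1A1 did not pass (0.04 and 0.09). The part of this shift in the results below was not tested.

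The integrated stress response begins when a kinase phosphorylates the translation factor eIF2, which slows protein synthesis in general while favouring translation of a few messages, among them that of ATF4. ATF4 is a bZIP transcription factor that pairs with partners of the C/EBP family and binds composite sites in genes for amino acid synthesis, amino acid transport and transfer RNA charging. Several genes it acts on feed back on the pathway: DDIT3, ATF3 and TRIB3 modify its output, and SESN2 and CHAC1 link it to nutrient sensing and to glutathione. ATF4 is controlled to a large extent at translation, so its messenger RNA level is not its protein level.

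All 10 regulators rose at 100 µM. The largest rise was in CHAC1, 8.02-fold, and the smallest in ATF4, 1.48-fold. The median log2 change of the 10 was 1.19, beside -0.01 over all tested genes. Against 0 µM, 14.4% of all tested genes rose at this dose (adjusted p under 0.05 in the quasi-likelihood test of edgeR, with Benjamini-Hochberg adjustment). Each of the 10 had all 3 libraries at 100 µM above all 18 libraries at 0 to 10 µM, as did 7.66% of all tested genes. Below 100 µM the same genes moved little: NUPR1 rose by a factor of 1.15 at 10 µM, DDIT3 fell at 0.1 µM, and no other test of a member against the controls passed. The 6 doses were all compared with the same 3 control libraries, so the comparisons are not independent of each other. Some groups under 100 µM that lie apart from the controls without overlap are described below. The share of all tested genes that do so was not computed. In bulk libraries, fewer cells of a type and less RNA per cell cannot be told apart.

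**Figure D1:**
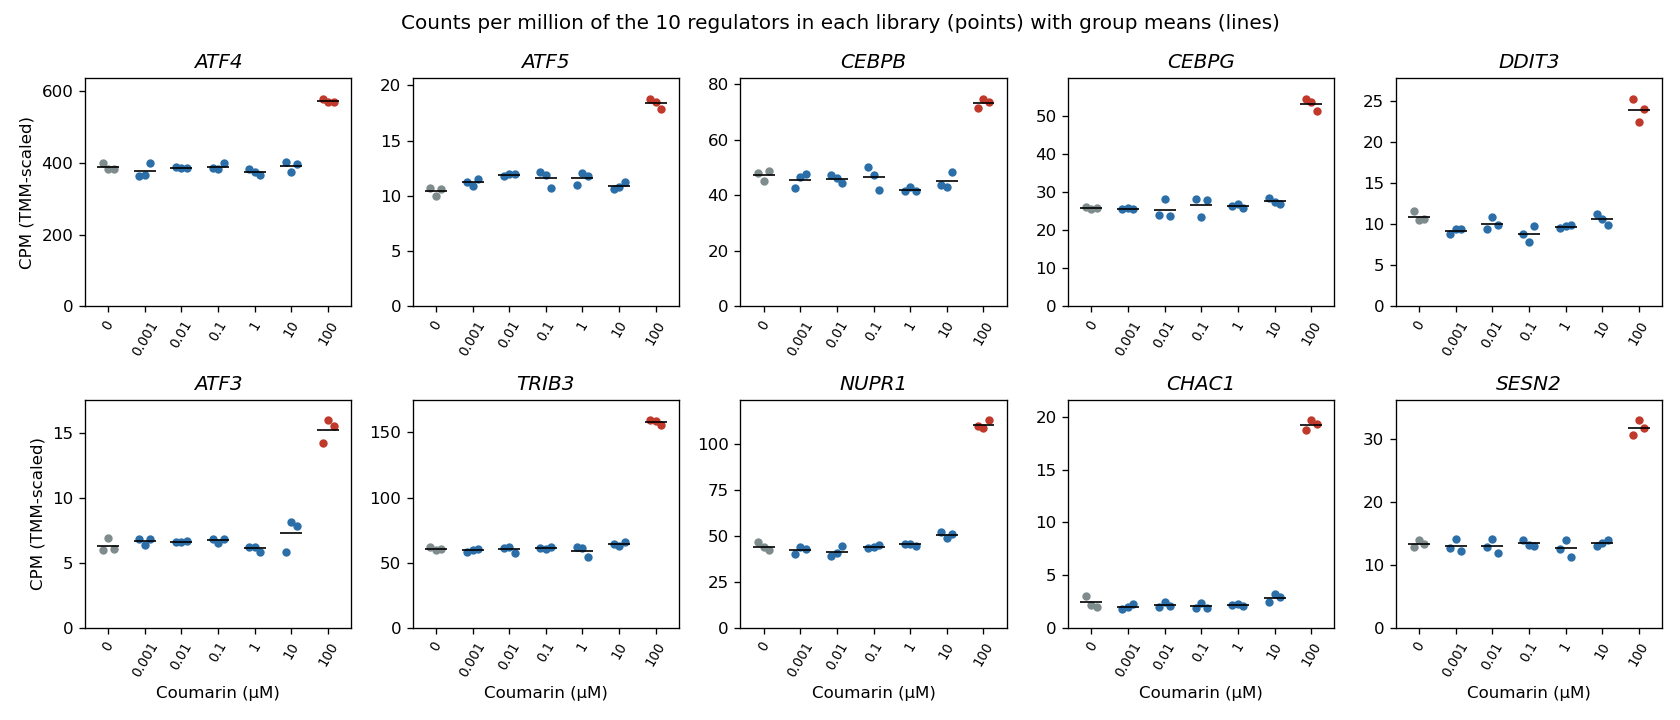
Each panel plots the CPM of 1 regulator (vertical axis, from 0, scaled to the library) in the 21 libraries against the coumarin dose in µM; points are libraries and lines are means of 3. In every panel the 3 libraries at 100 µM lie above the other 18, as for CHAC1, at 18.8 to 19.7 CPM against 1.73 to 3.16 CPM.

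Promoter sequence was examined because the 10 genes rose together at 1 dose. RefSeq promoter windows (GRCh38.p14, 250 bases before to 50 after a transcript start) were found for 9 of the 10 genes, 18 windows in all. The core of the composite ATF4-C/EBP site was searched as TGATGNAA on both strands (reverse complement TTNCATCA). It was present in windows of CHAC1, CEBPG and ATF3, 3 of 9 genes and 3 of 18 windows. Over all genes with a window the share was 4.46%, and 3.62% of all 35116 windows held it. Among listed ATF4 target genes outside the 10, 33 had a window and 12 of these held the core. The sites of the 3 regulators and of 4 target genes that are named again below are shown on the motif's own strand, with the core in capitals and 10 bases on each side.
CHAC1 chr15:40953252-40953279 (minus strand): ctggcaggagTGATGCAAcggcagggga
CEBPG chr19:33374061-33374088 (plus strand): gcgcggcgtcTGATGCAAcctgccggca
ATF3 chr1:212565206-212565233 (plus strand): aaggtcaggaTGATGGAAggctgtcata
GARS1 chr7:30594835-30594862 (minus strand): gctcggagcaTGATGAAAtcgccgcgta
JDP2 chr14:75427996-75428023 (plus strand): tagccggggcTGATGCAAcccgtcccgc
MARS1 chr12:57488054-57488081 (minus strand): aatccctcgcTGATGCAAccggaaccgg
SLC1A5 chr19:46784894-46784921 (minus strand): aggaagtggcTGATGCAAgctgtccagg
CHAC1, CEBPG, JDP2, MARS1 and SLC1A5 carry the form TGATGCAA, ATF3 the form TGATGGAA and GARS1 the form TGATGAAA. Positions are counted from the transcript start of the window that holds the core, with negative positions before that start. The core begins at -209 in CHAC1, -191 in ATF3 and -42 in CEBPG. The palindrome TGACGTCA, the cyclic AMP response element, was found in 0 of the 9 genes and in 2.25% of all genes with a window. The C/EBP core TTGCNNAA (reverse complement TTNNGCAA) was found in ATF5, ATF3 and SESN2 and in 12.7% of all genes with a window. A match describes letters only, and no binding was measured in this study.

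CHAC1, the regulator with the largest rise, is shown with the 250 bases before its transcript start. The capitals mark the composite core, which lies on the minus strand and therefore reads TTGCATCA here.
CHAC1 chr15:40953221-40953470 (plus strand): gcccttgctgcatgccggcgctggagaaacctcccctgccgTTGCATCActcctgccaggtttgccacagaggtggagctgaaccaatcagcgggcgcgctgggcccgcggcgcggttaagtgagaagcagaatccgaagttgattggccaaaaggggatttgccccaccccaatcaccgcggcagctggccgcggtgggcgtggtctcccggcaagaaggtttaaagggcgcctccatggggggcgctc

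ATF4, the central activator of the pathway, was the most abundant of the 10 per unit of length, at 148 FPKM (fragments scaled to gene length and library size) in control and 219 FPKM at 100 µM. It lies at chr22:39519695-39522685 on the plus strand (GRCh38). Control libraries held 401, 382 and 383 CPM, and libraries at 100 µM held 578, 571 and 570.4 CPM. The lowest treated library at 100 µM stood 1.41 times above the highest of the 18 libraries at 0 to 10 µM, which ran from 363 to 404 CPM. The groups did not overlap, although the change was the smallest of the 10: log2 change 0.56 (SE 0.04), adjusted p = 1.49e-14 by edgeR. Of the ATF4 pseudogenes, ATF4P1, ATF4P2 and ATF4P4 held at most 2 counts in any library and ATF4P3 at most 36; how shared reads were treated is not given in the sources used here.

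ATF5 is a bZIP factor related to ATF4 and likewise controlled at translation. It lies at chr19:49928702-49933935. Its control libraries held 10.7, 10.0 and 10.7 CPM and its libraries at 100 µM held 18.8, 18.5 and 17.9 CPM. The difference was a log2 change of 0.81 (SE 0.07), 1.76-fold, adjusted p = 3.66e-12 by edgeR. At 0.001, 0.01, 0.1 and 1 µM every ATF5 library lay above every control, at 10.8 to 12.1 CPM, but the log2 changes of 0.11 to 0.19 did not pass the test. At 0.1 µM the lowest ATF5 library held 10.75 CPM, beside 10.69 CPM in the highest control. These doses share the same 3 controls, and the share of all tested genes lying apart without overlap was not computed. Of the 2954 exonic bases of ATF5, 626 are shared with NUP62, a nuclear pore gene on the opposite strand. The strand setting of the counting is not given in the sources used here. NUP62 itself was at 107 CPM in control and 104 CPM at 100 µM (log2 change -0.03, adjusted p = 0.579 by edgeR).

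CEBPB and CEBPG encode C/EBP proteins that can pair with ATF4. CEBPB, at chr20:50190734-50192689, held 47.9, 45.3 and 48.7 CPM in control and 71.6, 74.7 and 73.5 CPM at 100 µM. The log2 change was 0.63 (SE 0.05), 1.55-fold, adjusted p = 5.44e-12 by edgeR. Before that rise its lowest group was 1 µM, with 41.6, 42.9 and 41.5 CPM, which did not pass the test (log2 change -0.17, adjusted p = 0.111 by edgeR). CEBPB shares 231 of its 1956 exonic bases with the antisense gene CEBPB-AS1, which held only 20 to 55 counts per library.

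CEBPG, at chr19:33373330-33382686, roughly doubled. Control libraries were close together at 26.2, 25.7 and 26.0 CPM, and the libraries at 100 µM held 54.5, 53.7 and 51.4 CPM. The log2 change was 1.03 (SE 0.06), 2.05-fold, adjusted p = 8.39e-17 by edgeR. At 10 µM its libraries held 28.4, 27.5 and 26.99 CPM, with a log2 change of 0.09 that did not pass. CEBPG was therefore the C/EBP member with the larger rise, while CEBPB was the more abundant per unit of length, at 23.2 FPKM against 5.64 FPKM in control.

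DDIT3 encodes CHOP, a C/EBP-related factor linked to cell death under prolonged stress. It lies on the minus strand at chr12:57516588-57521737. Its control libraries held 11.6, 10.6 and 10.6 CPM and its libraries at 100 µM held 25.3, 22.5 and 24.1 CPM. The rise was 2.19-fold, a log2 change of 1.13 (SE 0.08), adjusted p = 4.61e-15 by edgeR. DDIT3 held 8.81, 9.48 and 9.38 CPM at 0.001 µM and 9.55, 9.74 and 9.90 CPM at 1 µM. The log2 changes of -0.25 and -0.17 against the controls did not pass the test. At 0.01 µM it held 9.46, 10.85 and 9.93 CPM, which overlapped the controls (adjusted p = 0.501 by edgeR). The 0.1 µM group passed it, with 8.78, 7.85 and 9.75 CPM. There the fall was a log2 change of -0.32 (SE 0.09), adjusted p = 0.0186 by edgeR, and 1.43% of all tested genes fell at that dose. Leaving out control replicate 1, or 0.1 µM replicate 1 or 2, ended this call (adjusted p of 0.0638 to 0.157).

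DDIT3 shares 355 of its 1307 exonic bases with MARS, the gene for methionyl-tRNA synthetase on the opposite strand, and 58 with MBD6. MARS is a listed ATF4 target. As numbers of reads, not as levels, 3383 to 9029 counts per library were assigned to MARS and 236 to 922 to DDIT3. MARS rose 2.02-fold at 100 µM, from 119 to 239.8 CPM (adjusted p = 7.58e-21 by edgeR), and MBD6 rose 1.26-fold. Reads of the shared bases cannot be assigned to a strand from the table, and their part in the rise of DDIT3 was not tested. At 0.1 µM MARS rose by a log2 change of 0.19 (adjusted p = 0.00606 by edgeR) where DDIT3 fell. The part of shared reads at that dose was not tested either.

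ATF3, a bZIP factor often described as a repressor and induced by many stresses, had low counts in control. It lies at chr1:212565334-212620777. The libraries held 6.01, 6.91 and 6.04 CPM in control and 14.3, 16.0 and 15.6 CPM at 100 µM. This was a 2.42-fold rise, a log2 change of 1.28 (SE 0.09), adjusted p = 6.6e-14 by edgeR. At 10 µM the 3 libraries were spread more widely, at 5.84, 8.20 and 7.83 CPM, with 1 below all controls and 2 above them. That difference did not pass (log2 change 0.21, adjusted p = 0.289 by edgeR).

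TRIB3 is a pseudokinase that binds ATF4 and CHOP and damps their activity. It lies at chr20:362835-397559. Control libraries held 61.7, 59.5 and 60.4 CPM, and libraries at 100 µM held 159, 159 and 155 CPM. The rise of 2.61-fold, a log2 change of 1.38 (SE 0.04), had the smallest adjusted p of the 10, 3.48e-25 by edgeR. At 10 µM the libraries held 64.1, 63.1 and 66.1 CPM, and the log2 change of 0.09 did not pass (adjusted p = 0.32 by edgeR).

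NUPR1 encodes a small nuclear protein induced by stress. It lies on the minus strand at chr16:28532708-28539174. It was the only one of the 10 to rise against control at more than 1 dose. The control libraries held 46.7, 43.9 and 42.1 CPM, those at 10 µM 52.3, 48.6 and 51.2 CPM, and those at 100 µM 110.3, 109 and 113 CPM. The means of these 3 groups lay in the order of dose. The whole series did not: the means at 0.001 and 0.01 µM, 42.17 and 41.45 CPM, were under the control mean of 44.24 CPM. At 100 µM NUPR1 rose 2.50-fold, a log2 change of 1.32 (SE 0.05), adjusted p = 1.51e-23 by edgeR. At 10 µM the log2 change was 0.20 (SE 0.05), adjusted p = 0.0204 by edgeR. NUPR1 was thus 1 of 10 regulators called at 10 µM, where 1.74% of all tested genes rose. Leaving out control replicate 2 or 3, or 10 µM replicate 1 or 3, ended the call at 10 µM (adjusted p of 0.0829 to 0.191). It was kept, with a log2 change of 0.23 and adjusted p = 0.000281 by edgeR, against the 12 libraries at 0.001 to 1 µM.

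CHAC1 encodes an enzyme that breaks down glutathione. It lies at chr15:40952962-40956519. It had the lowest FPKM of the 10 in control and the largest rise, ranking 5 among all 16699 tested genes by log2 change at 100 µM. Control libraries held 3.04, 2.17 and 2.001 CPM, with replicate 1 the highest, and the libraries at 100 µM held 18.8, 19.7 and 19.4 CPM. The log2 change was 3.00 (SE 0.12), 8.02-fold, adjusted p = 9.32e-22 by edgeR. The lowest library at 100 µM was 5.94 times the highest of the 18 others. At 10 µM CHAC1 held 2.41, 3.16 and 2.89 CPM, which overlapped the controls through replicate 1 (log2 change 0.23, adjusted p = 0.469 by edgeR). Against the 12 libraries at 0.001 to 1 µM the same 3 libraries differed by a log2 change of 0.45 (adjusted p = 0.0296 by edgeR).

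SESN2, a sestrin that senses leucine and restrains the growth kinase complex mTORC1, lies at chr1:28259527-28282491. Its libraries held 12.9, 13.9 and 13.3 CPM in control and 30.8, 33.0 and 31.8 CPM at 100 µM. SESN2 rose 2.38-fold, a log2 change of 1.25 (SE 0.07), adjusted p = 3.74e-17 by edgeR. At 10 µM it held 13.0, 13.5 and 13.9 CPM, within the range of the 12 lower-dose libraries and with a log2 change of 0.02 that did not pass.

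**Figure D2:**
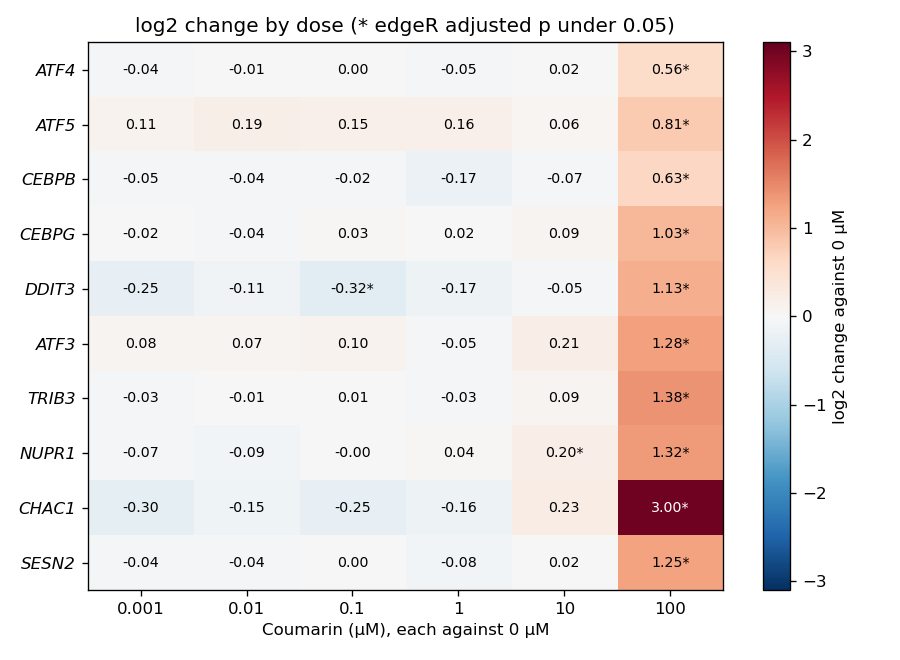
Each cell gives the log2 change of 1 regulator (rows) at 1 dose of coumarin in µM (columns) against 0 µM, coloured from blue (lower) to red (higher), and an asterisk marks an edgeR adjusted p under 0.05. The column at 100 µM holds 10 asterisks, the rest of the plot 2: NUPR1 at 10 µM and DDIT3 at 0.1 µM.

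By level per unit of length in control, the order after ATF4 was CEBPB (23.2 FPKM), TRIB3 (16.9), DDIT3 (8.01), NUPR1 (7.47), CEBPG (5.64), SESN2 (3.71), ATF5 (3.39), ATF3 (1.498) and CHAC1 (1.12). At 100 µM TRIB3 (44.2 FPKM) stood above CEBPB (36.0 FPKM) and NUPR1 (18.8 FPKM) above DDIT3 (17.6 FPKM). This order depends on the gene lengths used, such as 5674 bases for NUPR1 and 1307 for DDIT3. The lengths of the transcripts expressed were not examined. CHAC1 went from the lowest level to 9.01 FPKM, above SESN2 (8.87), ATF5 (5.99) and ATF3 (3.64). By rank of log2 change among the 16699 tested genes, TRIB3 was 54, NUPR1 63, ATF3 70, SESN2 75, DDIT3 103, CEBPG 118, ATF5 231, CEBPB 388 and ATF4 510. The most abundant regulators, ATF4 and CEBPB, were those with the smallest changes.

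The step to 100 µM was also taken from 10 µM, a comparison that uses no control library. All 10 regulators rose between these doses, where 8.22% of all tested genes rose. The log2 change was 2.77 for CHAC1 (adjusted p = 1.05e-20 by edgeR) and 0.55 for ATF4 (adjusted p = 5.86e-14 by edgeR), with the other 8 between 0.70 and 1.29. In all 10 the libraries at 100 µM lay above those at 10 µM without overlap, as they did in 16.0% of all tested genes. NUPR1 went from 50.7 to 111 CPM, a log2 change of 1.13, beside 1.32 from the controls. For DDIT3 and CEBPB the step from 10 µM was slightly larger than the change from control, 1.18 beside 1.13 and 0.70 beside 0.63, since both lay a little lower at 10 µM than in the controls.

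**Figure D3:**
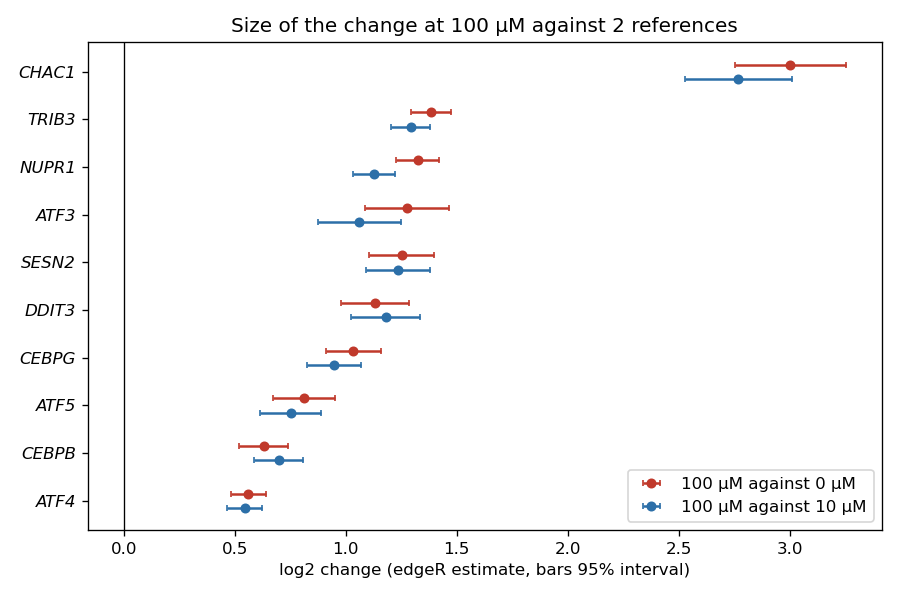
Points give the log2 change of each regulator at 100 µM against 0 µM (red) and against 10 µM (blue) on the horizontal axis, and bars are 95% intervals of the edgeR fit. CHAC1 stands apart at 3.00 and 2.77, and ATF4 lies lowest at 0.56 and 0.55.

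No neighbouring pair of doses below 100 µM had a regulator that passed the edgeR test. From 1 to 10 µM, 9 of the 10 were higher and 5 did so without overlap (CEBPB, CEBPG, TRIB3, NUPR1 and CHAC1), with a median log2 change of 0.11. Over all tested genes, 4.90% were higher at 10 than at 1 µM without overlap. Unadjusted p was under 0.05 for 4 of these tests (ATF3, TRIB3, NUPR1 and CHAC1), and DESeq2 and limma called 0. Over all tested genes that step called 0.126% in either direction. From 0.001 to 0.01, 0.01 to 0.1 and 0.1 to 1 µM the shares over all genes were 0.0240%, 0.0479% and 0.0898%. In these steps the unadjusted p was under 0.05 in 0 tests, in 1 (DDIT3) and in 1 (CEBPB), and DESeq2 and limma called 0 regulators.

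Against the controls, the 40 tests of the 10 regulators at 0.001 to 1 µM gave 13 positive and 27 negative log2 changes, from -0.32 to 0.19. At 0.001 µM edgeR called 0 regulators, with 1 unadjusted p under 0.05 (DDIT3), beside 1.53% of all genes. At 0.01 µM it called 0, with 1 unadjusted p under 0.05 (ATF5), beside 5.86% of all genes; limma on log2(FPKM + 1) called ATF5 there and DESeq2 called 0. At 0.1 µM DDIT3 was the 1 regulator called, beside 6.45% of all genes in either direction. At 1 µM edgeR called 0, with 2 unadjusted p under 0.05 (ATF5 and CEBPB), beside 2.01% of all genes, and the other tools called 0. In the test of all 7 groups at once, all 10 passed, with adjusted p from 5.06e-28 (TRIB3) to 5.3e-12 (ATF5) by edgeR, beside 30.0% of all genes.

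Control replicates 2 and 3 had the largest TMM library scaling factors of the 21 (1.040 and 1.043, range 0.972 to 1.043), and the part of this in the results was not tested. The 12 libraries at 0.001 to 1 µM were used as a second reference. Against them all 10 regulators rose at 100 µM, where 16.6% of all genes rose, with log2 changes from 0.58 (ATF4) to 3.22 (CHAC1). For DDIT3 the change was 1.34, beside 1.13 from the controls. At 10 µM NUPR1 and CHAC1 rose against this reference, where 0.725% of all genes rose. TRIB3 differed by 0.11 without passing (adjusted p = 0.11 by edgeR).

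The wider pathway was described with 9 lists, to be read against the 14.4% of all tested genes that rose and the 12.9% that fell at 100 µM. The lists were chosen with earlier results of these data known, so their counts are a description and not independent support. Genes listed as ATF4 targets, outside the 10, rose in 39 of 42 cases at 100 µM, with none lower and a median log2 change of 0.78. PSAT1, an enzyme of serine synthesis, rose from 164 to 490 CPM (2.99-fold, adjusted p = 8.86e-29 by edgeR). WARS and GARS, which charge transfer RNA with tryptophan and glycine, rose 2.53-fold and 2.15-fold. PCK2, the mitochondrial phosphoenolpyruvate carboxykinase, rose 2.73-fold, FAM129A 2.76-fold and INHBE, which encodes an activin subunit, 5.14-fold. The 3 that did not pass were ALDH18A1, SLC38A2 and CBS. Several of these genes were also higher at 10 µM: 10 of the 42 rose, beside 1.74% of all tested genes, with a median log2 change of 0.11. They included PSAT1 (log2 change 0.30, adjusted p = 7.33e-06 by edgeR), WARS (0.25), FAM129A (0.22), GARS (0.20) and PCK2 (0.17). Rises at 10 µM were not limited to this list. Of the 20 ATF6 and IRE1-XBP1 genes described below 4 rose, and GCN1, EIF2B3 and MTOR rose in other lists. In the bZIP, paralog, CHOP-linked and glutathione lists 0 genes rose at 10 µM. Of the 42, 1 passed with control replicate 1 alone as the control group, 4 without control replicate 3, and 6 without control replicate 2 or without 10 µM replicate 2.

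Genes upstream of ATF4 were listed next. Of 9 eIF2 kinases and their regulators, EIF2AK3, the kinase also called PERK, fell at 100 µM by a log2 change of -0.20 (adjusted p = 0.0221 by edgeR), and 8 did not pass, so that the share that fell was near that over all genes. Leaving out control replicate 2 or 3, or 100 µM replicate 1 or 3, ended the call of EIF2AK3. With control replicate 1 alone as the control group the log2 change of EIF2AK3 was -0.13. The call was also lost without a filter, with limma without a filter, at an adjusted p under 0.01 and with the 0.001 to 1 µM reference. With that reference the list still held 1 lower gene, which was not EIF2AK3. Among 10 genes for eIF2, its exchange factor eIF2B and its phosphatases, 6 rose. EIF2S2, the beta subunit of eIF2, had the largest change, a log2 change of 0.58, followed by EIF2B3 with 0.38. PPP1R15A, the stress-induced phosphatase subunit also called GADD34, gave a log2 change of -0.06 that did not pass (adjusted p = 0.551 by edgeR), and it was named after its value was seen. RNA levels carry no information on the phosphorylation of eIF2.

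Of 10 paralogs of the regulators, 8 were tested, 1 rose and 1 fell. JDP2, related to ATF3, rose 1.40-fold (adjusted p = 1.99e-07 by edgeR), and CEBPD fell by a log2 change of -0.16 (adjusted p = 0.0401 by edgeR), a call lost with DESeq2, limma, the replicate block (adjusted p = 0.0504 by edgeR) or control replicate 1 alone, and without control replicate 2 or 3 or 100 µM replicate 1 or 3. CEBPA (log2 change 0.08), TRIB1 (-0.08), TRIB2 (-0.31), SESN1 (-0.03), SESN3 (0.21) and CHAC2 (0.04) did not pass, and CEBPE and NUPR2 were not tested for lack of counts. The median was 0.00, beside 1.19 for the 10 regulators. Of 37 tested bZIP factors outside the 10, 16 rose and 5 fell, with a median log2 change of 0.12; the share that fell was near that over all genes. JUN rose 1.68-fold, FOS 1.92-fold, XBP1 1.27-fold and NFE2L1 1.197-fold, while CREB3L4 fell by a log2 change of -0.41.

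Of 8 genes listed as linked to CHOP, 3 rose and 5 did not pass, and the median log2 change of the list was 0.08. PMAIP1, which encodes the cell death protein NOXA, rose by a log2 change of 0.82 (adjusted p = 3.18e-11 by edgeR). BBC3, which encodes PUMA, rose by 0.38 and GADD45A by 0.36. The 5 that did not pass were ERO1A (-0.004), PPP1R15A (-0.06), TNFRSF10B (0.10), BCL2L11 (0.04) and BCL2 (0.06). The 20 genes of the other branches of the endoplasmic reticulum stress response, through ATF6 and IRE1-XBP1, were mixed, with 7 higher and 3 lower. Their median was 0.07, and only the share that fell was near that over all genes. HERPUD1 rose 1.41-fold and XBP1 1.27-fold, while the chaperone HSP90B1 fell by a log2 change of -0.34 (adjusted p = 2.09e-08 by edgeR). HSPA5, the chaperone BiP and a common marker of these branches, gave 0.05 at 100 µM and did not pass (adjusted p = 0.374 by edgeR). It was named after its value was seen. At 10 µM 4 of the 20 rose, beside 1.74% of all tested genes. These were HYOU1 (log2 change 0.25), CALR (0.17), PDIA4 (0.15) and HSPA5 (0.14, adjusted p = 0.0444 by edgeR). The count at 10 µM was not repeated with other settings.

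The partners of CHAC1 and SESN2 were listed as well. Of 11 genes of glutathione synthesis and breakdown, 6 rose and 2 fell. SLC7A11, the cystine transporter and also a listed ATF4 target, rose by a log2 change of 0.45, and the glutamyltransferases GGT5 and GGT1 fell by -0.91 and -0.21. With control replicate 1 alone as the control group, 1 of the 11 rose and 2 fell, and leaving out control replicate 2 or 100 µM replicate 3 left 5 calls in place of 8. Of 22 tested genes of sestrin and mTORC1 nutrient sensing, DDIT4 and MTOR rose (log2 changes 0.21 and 0.17), and CASTOR2, BMT2 and RHEB fell (-0.49, -0.49 and -0.21). These shares were near or below those over all genes. The median of this list was -0.02, beside the 1.25 of SESN2 itself.

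**Figure D4:**
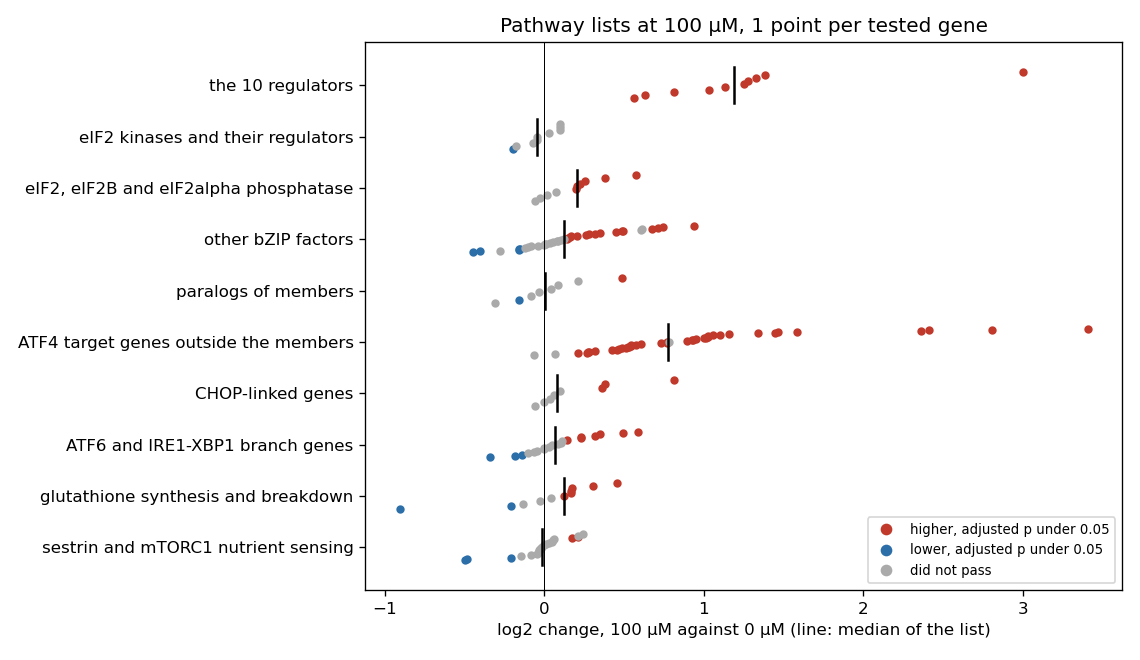
Each point is 1 tested gene, placed by its log2 change at 100 µM against 0 µM, in rows for the 10 regulators and 9 pathway lists; red passed the edgeR test higher, blue lower, grey did not pass, and vertical bars are list medians. The regulators (median 1.19) and the ATF4 targets (0.78) lie to the right, and the kinases (-0.04) and the sestrin and mTORC1 genes (-0.02) lie around 0.

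For each regulator the protein-coding gene with the most similar profile was taken, by Pearson correlation of log2 CPM over the 21 libraries. This was SARS, the seryl-tRNA synthetase gene, for NUPR1, CHAC1, CEBPG and DDIT3, and PCK2 for TRIB3, SESN2 and ATF3. ATF4 was closest to ASS1, an enzyme of arginine synthesis, ATF5 to SLC1A5, a glutamine transporter, and CEBPB to RBCK1. For CHAC1 the next were INHBE and ASS1. These coefficients, 0.973 to 0.994, largely describe the 3 libraries at 100 µM, which stand apart for all 10 regulators. Over the 18 libraries at 0 to 10 µM the same pairs gave 0.862 for NUPR1 with SARS, 0.745 for CHAC1 with SARS and 0.347 for SESN2 with PCK2. Among the 10 regulators themselves, the 45 pairs over those 18 libraries had a median of 0.194, from -0.516 to 0.625. The libraries share depth and scaling, and the coefficients are given as a description only.

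Replicates were close for most regulators. The coefficient of variation over 3 libraries had a median of 3.72% over the regulators and groups, and ran from 0.427% to 23.2%, the highest being CHAC1 in control. Leaving out any 1 of the 6 libraries compared, scaling otherwise, or using DESeq2 or limma left the direction and the call of all 10 regulators at 100 µM in place.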

How the data were processed

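Gene expression was measured by RNA sequencing in 21 libraries, grouped by the dose in the labels. The authors deposited 1 table of whole-number gene counts, and a second deposited table gives FPKM (per length and library total). The submitters' processing notes name HISAT2, DESeq2 and GRCh38. For the counter and its strand setting the entry is: not given in the sources used here. RNA was selected on poly(dT) beads, per the labels' protocols.

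Differential expression was computed from the counts with edgeR 4.0.16 (R 4.3.3), using filterByExpr, TMM factors, and quasi-likelihood F tests in 1 fit of all 21 libraries (14 residual degrees of freedom), two-sided except for the test of 7 groups. P-values were adjusted by Benjamini-Hochberg over 16699 genes, and "rose" and "fell" are used of adjusted p under 0.05. CPM use TMM-scaled totals. Levels between genes are compared only in FPKM. A count of 0 allows up to 3 counts (counting error only). The common biological coefficient of variation was 4.49%. The scripts were tested on simulated data.

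The members and all lists were chosen with earlier results of these data known. All 10 members are named. Of each list up to 6 called genes with the smallest p at 100 µM may be named, and all listed paralogs. For each member the most similar coding gene is named, and 3 for the member with the largest rise. Motifs were counted in RefSeq promoter windows; these matched 33 of the 42 listed target genes by symbol, under current names such as GARS1 for GARS.

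Alternatives were RLE and upper-quartile scaling, 2 other filters, the replicate number as a block, only the 2 groups compared, DESeq2 1.42.0, limma 3.58.1 on log2(FPKM + 1) or log2(FPKM + 0.1), an adjusted p under 0.01, control replicate 1 alone, the libraries at 0.001 to 1 µM as reference, and leaving out each library compared.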

Additional observations from a re-analysis of the deposited data

How the results depend on the processing

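All 190 alternatives for the 10 regulators at 100 against 0 µM, and all 170 for 100 against 10 µM, kept direction and call; the log2 change of CHAC1 against 0 µM ranged from 2.25 to 3.22. Calls at lower doses rest on small changes near the limit of 3 libraries per group. The replicate numbers did not pair the libraries (1 of 63 same-number correlations over 0.1; 9 of 21 libraries closest to their own number), and with the replicate block 4446 genes were called at 100 µM, against 4558 without it, and 1 paralog against 2. Upper-quartile scaling put 41.4% of calls at 100 µM upward, against 52.9% with TMM.

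The number of regulators called at 0.01 µM was 1 with each limma version (0 otherwise). At 0.1 µM it was 0 with limma without a filter, an adjusted p under 0.01 and control replicate 1 alone, and 0 to 1 leaving out a library. At 10 µM it was 0 with upper-quartile scaling, only the 2 groups, limma without a filter, an adjusted p under 0.01 and control replicate 1 alone, 2 with the 0.001 to 1 µM reference, and 0 to 1 leaving out a library. For NUPR1 the adjusted p at 10 µM ran from 0.000281 to 0.611, and for DDIT3 at 0.1 µM from 0.00615 to 0.157.

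At 100 µM the kinase list gave 0 calls without a filter, with limma without a filter and at an adjusted p under 0.01, 2 with only the 2 groups, and 0 to 1 leaving out a library. The paralogs gave 1 with DESeq2, each limma version, an adjusted p under 0.01 and control replicate 1 alone, 4 with the 0.001 to 1 µM reference, and 1 to 2 leaving out a library. Glutathione genes gave 3 with control replicate 1 alone and 5 to 8 leaving out a library, and sestrin and mTORC1 genes 3 with control replicate 1 alone and 8 with the 0.001 to 1 µM reference. ATF4 targets at 10 µM, an alternative set chosen after seeing the data, gave 5 with only the 2 groups, 6 at an adjusted p under 0.01, 1 with control replicate 1 alone, and 4 to 12 leaving out a library.

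Small changes at 10 µM reversed without passing: ATF4 to -0.0149 with upper-quartile scaling, -0.0314 with control replicate 1 alone and -0.0111 to 0.0393 over libraries left out (also -0.003 and -0.00414); ATF5 to -0.0874, CEBPB to 0.00614 and DDIT3 to 0.162 with the 0.001 to 1 µM reference, and DDIT3 to 0.000461 without 10 µM replicate 3 (-0.103 to 0.000461 over libraries left out); CHAC1 to -0.106 with control replicate 1 alone; SESN2 to -0.0143 with upper-quartile scaling and -0.0185 to 0.0394 over libraries left out (also -0.00965). The cause was not tested. With control replicate 1 alone the spread comes from the treated groups, and losing a call there says nothing of whether a change is absent.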
